A study of Mus musculus with 14 samples.

Results

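The epithelium of the fetal urogenital sinus was compared, across all genes on the array, with the differentiated cells of the adult mouse prostate. The comparison took the 3 samples labelled as urogenital sinus epithelium (UGE) and the 4 labelled Sca-1Neg, 7 of the 14 samples of the series, by their titles alone. The UGE samples came from C57BL/6 embryos at day 16 of gestation, whose sex the labels do not give. The Sca-1Neg samples were sorted by flow cytometry from the prostates of adult male C57BL mice, aged 6 to 8 weeks by the labels, as the cells without the surface antigen Sca-1. By the study's methods these cells came from the region of the ducts close to the urethra, and were the cells with the least antigen. The other 7 samples, 3 Sca-1Hi and 4 Sca-1Lo, were sorted from the same glands for high or low Sca-1 and serve below as further adult references. The labels describe small pools of sorted cells for all samples, whereas the methods describe the UGE as dissected and put into lysis reagent, so that dissection and sorting differed along with age and cannot be told apart from it. Each sample was hybridized to 1 Affymetrix mouse array, and nothing in the labels ties a replicate to a separate litter or animal, so that the p-values below measure only the spread between these samples.

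The prostate grows out of the urogenital sinus, an endodermal tube, when androgens acting on the surrounding mesenchyme cause its epithelium to form solid buds that invade the stroma. On the day sampled here the epithelium is multilayered, divides quickly, and exchanges hedgehog, Wnt, fibroblast growth factor and BMP signals with the mesenchyme. In the adult gland most epithelial cells have left the cell cycle, and the luminal cells make large amounts of secreted protein under the control of androgens.

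Values are PLIER signals, a model-based probe set intensity on a linear scale, and differences are on the log2 scale with their standard error (SE, after ±) from a limma fit of all 14 arrays. Calls required that p, after Benjamini-Hochberg adjustment, was below 0.05 and that the brighter group exceeded the dimmer by over 75%, and the words rose and fell are kept for called genes. Where a group did not exceed a signal of 20, taken as the floor, at least N-fold gives the ratio to that floor. The arrays had median signals of 64.2 to 80.8, and 73.8 to 81.2% of probe sets lay above 20. Correlations of log2 signal ran from 0.927 to 0.970 within UGE, from 0.855 to 0.968 within Sca-1Neg and from 0.717 to 0.823 between them. A UGE array, replicate 1, stood apart by genes of nerve, stroma and blood. Sca-1Neg replicates 1 and 2 stood apart by genes of leukocytes and by globin, and replicate 4 by genes of muscle and by the glial factor Sox10, at 12534 against 52.4 to 265 on the other Sca-1Neg arrays. The study numbers the 4 Sca-1Neg arrays 1, 2, 4 and 5, which makes the same division into replicates 1 and 2 and replicates 3 and 4. What the numbers mark is not given in the sources used here, and a batch cannot be told apart from the differences between these pairs. For many lists, counts without single arrays or with only 1 of these pairs are given below. Calls of single genes are marked where leaving out 1 array lost them. Those kept then but lost against replicates 3 and 4 alone, or with a gene as the mean of its probe sets, are not marked in place and are named at the end.

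Of 17149 genes tested, 2794 were called higher in UGE and 2207 lower, which is 16.3% and 12.9% of the genes. The median difference over all genes was 0.07. The changes were not symmetric in size. Among called genes, 360 rose and 607 fell over 8-fold, and 61 rose and 163 fell over 32-fold. These folds take signals below the floor as they are, and they were not counted with the floor applied. With 16 added to each signal before log2, 2713 genes were called higher and 1910 lower. The 3 UGE arrays all lay above the 4 Sca-1Neg arrays for 20.1% of genes and all below for 15.8%. A total of 63 gene lists, from cell division to the marker genes of other cell types, were then described by how many members were called, beside these shares. The groups that stood farthest above the share of all genes were mitosis, DNA replication, urothelium, DNA repair and chromatin on the higher side, and secreted proteins, smooth muscle, interferon-responsive genes, antigen presentation and leukocytes on the lower side.

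**Figure D1:**
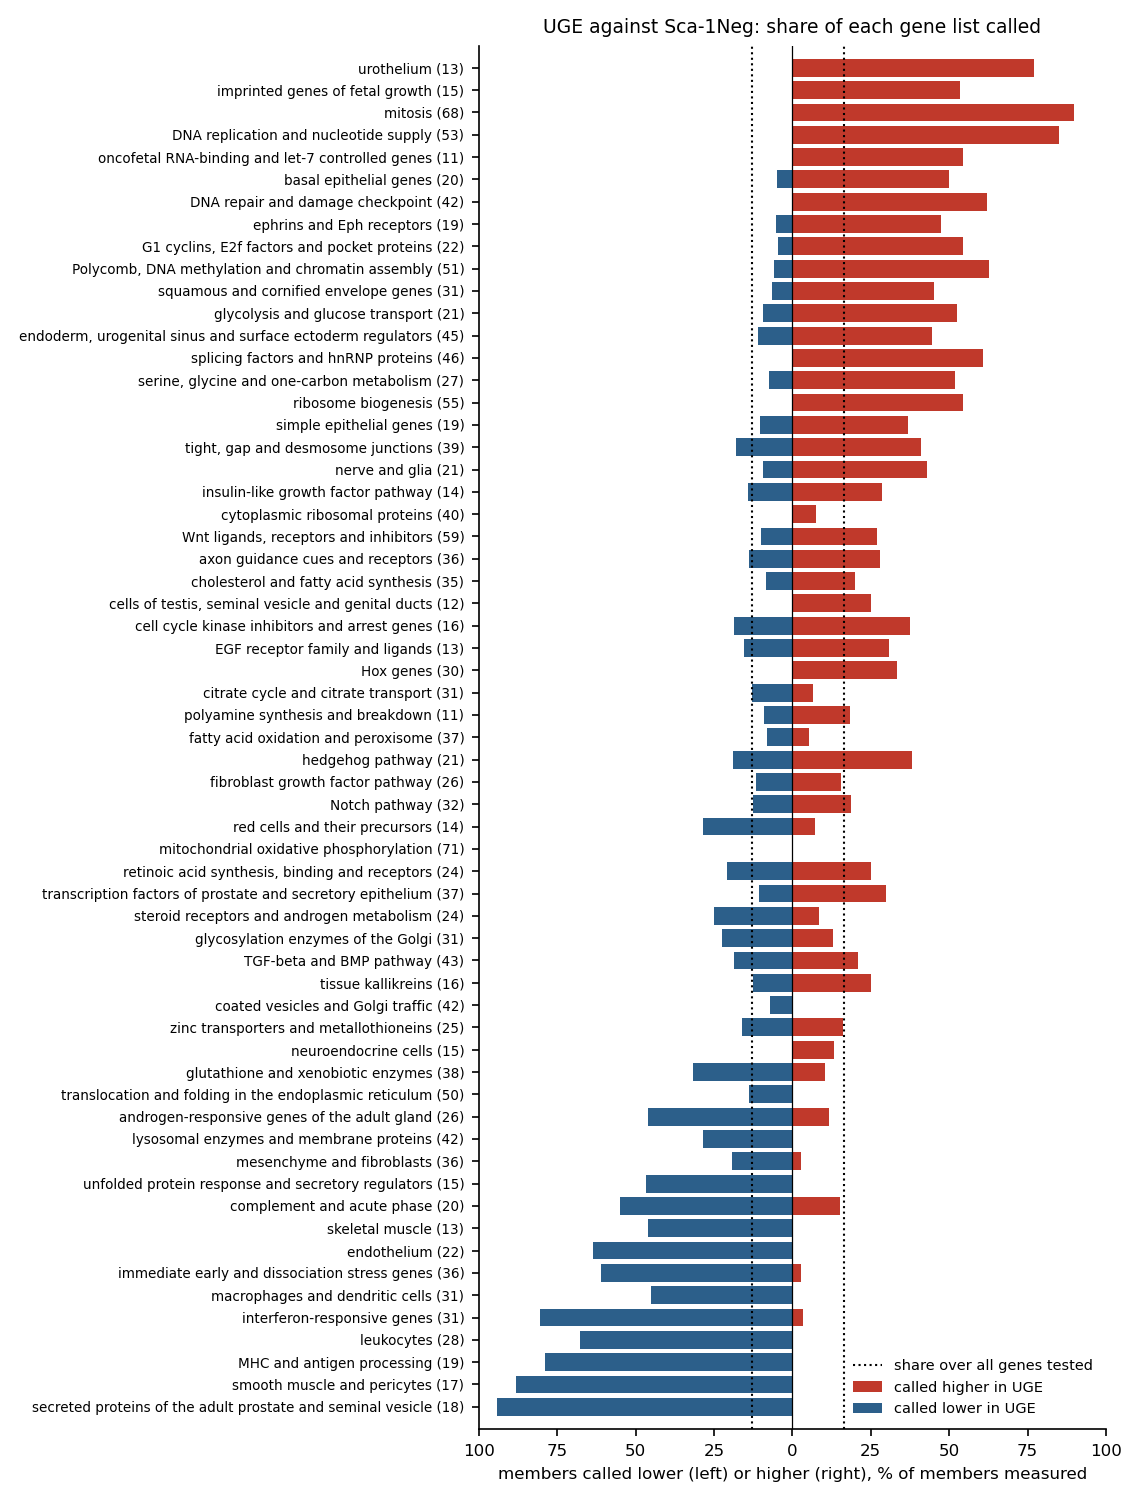
Share of the measured members of each gene list called higher (right) or lower (left) in UGE than in Sca-1Neg, in percent, for lists with at least 10 measured members. Dotted lines give the shares over all 17149 genes, 16.3% higher and 12.9% lower, and mitosis (61 of 68 higher) and the secreted proteins (17 of 18 lower) mark the ends.

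Most genes of mitosis rose. Of 68 members measured, 61 were called higher and none lower, with a median difference of 3.14, against 0.07 over all genes. Cdc20, which activates the anaphase-promoting complex, gave signals of 3190.0, 3346 and 3445 in UGE and 267, 314, 456 and 379.9 in Sca-1Neg (log2 difference 3.26 ± 0.42, adjusted p = 7.87e-05). Bub1, a kinase of the spindle checkpoint, was at 479, 619 and 668 in UGE and 36.7, 42.2, 28.3 and 31.9 in Sca-1Neg (log2 difference 4.08 ± 0.31, adjusted p = 1.01e-06). Kif20a, a kinesin of cytokinesis, stood at 342, 378 and 362 in UGE and 11.3, 17.7, 20.6 and 17.0 in Sca-1Neg, at least 17.9-fold higher in UGE. None of the 3 genes had an overlap between the groups, and the UGE arrays differed from each other far less than from any adult array. Cdk1, the kinase that drives entry into mitosis, rose by 3.39 ± 0.40. Its partner Ccna2 rose by 3.16 ± 0.37, Plk1, a kinase of spindle assembly, by 3.52 ± 0.28, and Top2a, the topoisomerase that untangles replicated chromosomes, by 3.79 ± 0.37. The medians of the list on single arrays, set against the Sca-1Neg mean, were 2.86, 3.16 and 3.14 in UGE and between -0.12 and 0.07 in Sca-1Neg.

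The adult reference made little difference to this group. The same UGE arrays against Sca-1Hi gave 61 members higher, where 15.8% of all genes were called higher, and a median of 3.24. Against Sca-1Lo the count was 61, beside 13.4% of all genes, and the median 3.35. These comparisons share the UGE arrays and are not independent of each other. For 62 members every UGE array lay above every Sca-1Neg array, beside 20.1% of all genes. Above all 11 adult arrays the count was also 62, and the share of all genes that did so was not counted.

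Genes of DNA replication followed, with 45 of 53 members called higher, none lower, and a median of 2.08. Clspn, an adaptor at stalled forks, had signals of 729, 908 and 977 in UGE and 49.4, 91.8, 46.2 and 45.1 in Sca-1Neg (log2 difference 3.96 ± 0.34, adjusted p = 3.18e-06). Mcm3, a subunit of the replicative helicase, was at 955, 965 and 983 in UGE and 94.5, 99.0, 105 and 100.5 in Sca-1Neg (log2 difference 3.28 ± 0.23, adjusted p = 6.79e-07). The arrays of each group agreed closely for Mcm3, and the groups were separated by nearly an order of magnitude. The helicase subunits Mcm5 and Mcm6 rose by 3.12 ± 0.24 and 2.53 ± 0.27, Cdc6, which loads the helicase, by 3.14 ± 0.40, Dbf4, which activates the kinase that fires origins, by 3.22 ± 0.31, and Wdhd1, a fork component, by 3.29 ± 0.28. Against Sca-1Hi and Sca-1Lo, 42 and 43 members were higher.

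Because these genes moved together, the promoters of a few of them are shown, as the 250 bases before the RefSeq transcription start (build GRCm38.p6), read 5′ to 3′ on the strand of the gene. Capitals mark the CCAAT box and the CHR element TTTGAA on either strand, both known from promoters of genes expressed late in the cell cycle, and in Cdk1, Mcm5 and Mcm6 also the E2F letters, which are TTCCCGC and, as an alternative spelling, TTGGCGC, on either strand, known from promoters used at the start of replication.
Top2a, chr11:99024190-99024439, minus strand: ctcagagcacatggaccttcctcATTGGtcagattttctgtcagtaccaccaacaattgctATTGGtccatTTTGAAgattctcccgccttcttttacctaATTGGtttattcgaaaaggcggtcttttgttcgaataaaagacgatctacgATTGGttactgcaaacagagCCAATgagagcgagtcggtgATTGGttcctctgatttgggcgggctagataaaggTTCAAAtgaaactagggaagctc
Cdk1, chr10:69352913-69353162, minus strand: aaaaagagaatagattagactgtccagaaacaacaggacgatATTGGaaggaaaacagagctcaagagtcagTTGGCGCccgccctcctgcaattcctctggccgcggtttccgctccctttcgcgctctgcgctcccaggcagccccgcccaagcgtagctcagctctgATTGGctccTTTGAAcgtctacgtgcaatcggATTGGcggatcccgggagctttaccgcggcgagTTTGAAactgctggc
Kif11, chr19:37376132-37376381, plus strand: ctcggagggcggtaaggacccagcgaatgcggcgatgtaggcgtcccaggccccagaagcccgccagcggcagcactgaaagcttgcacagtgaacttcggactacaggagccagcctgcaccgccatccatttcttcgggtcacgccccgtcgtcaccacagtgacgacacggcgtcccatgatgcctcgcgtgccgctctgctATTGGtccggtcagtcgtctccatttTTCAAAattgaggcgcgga
Mcm5, chr8:75109259-75109508, plus strand: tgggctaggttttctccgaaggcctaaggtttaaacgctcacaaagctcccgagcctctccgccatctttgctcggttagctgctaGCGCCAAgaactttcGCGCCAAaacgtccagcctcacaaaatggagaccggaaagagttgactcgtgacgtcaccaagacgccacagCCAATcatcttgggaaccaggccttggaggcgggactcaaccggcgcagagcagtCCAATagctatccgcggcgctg
Mcm6, chr1:128359706-128359955, minus strand: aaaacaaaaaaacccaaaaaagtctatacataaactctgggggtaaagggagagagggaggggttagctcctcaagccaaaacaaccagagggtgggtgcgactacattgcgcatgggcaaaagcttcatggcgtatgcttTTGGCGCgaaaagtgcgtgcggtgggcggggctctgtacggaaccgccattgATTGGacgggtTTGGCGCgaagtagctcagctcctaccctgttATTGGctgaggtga

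Top2a held 6 CCAAT boxes and 2 CHR elements in this window, and Cdk1 held 3 and 2. Kif11, the kinesin that separates the spindle poles (log2 difference 3.63 ± 0.34, adjusted p = 6.71e-06), held 1 of each, the CHR element from -19 to -14 relative to the start. Mcm5 and Mcm6 each held 2 CCAAT boxes and 2 copies of the E2F letters, and no CHR element. Over all genes with a single listed start (11072 of 17149), 36.0% held a CCAAT box in the window on either strand, 11.7% a CHR element and 9.01% the E2F letters. Among mitosis genes (51 of 68 with a single start) the shares were 62.7%, 31.4% and 11.8%, and among replication genes (38 of 53) 55.3%, 13.2% and 28.9%. A CCAAT box together with a CHR element stood in 25.5% of mitosis promoters, 10.5% of replication promoters and 4.17% of all. The second spelling of the E2F letters, read on the other strand, can share bases with a CCAAT box. These shares describe the letters in the window and were not tested.

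The cyclins and E2f factors of the G1 phase were called higher for 12 of 22 members and lower for 1. Ccne1, the cyclin that starts S phase, gave the largest change, with signals of 10765, 13459.5 and 17264 in UGE and 752, 867, 60.1 and 67.8 in Sca-1Neg (log2 difference 5.90 ± 0.98, adjusted p = 0.000664). Sca-1Neg replicates 1 and 2 were more than 10 times as high as replicates 3 and 4 for this gene, yet all 4 lay far below UGE. The repressors E2f7 and E2f8, which act late in S phase, also rose, E2f7 at least 16.6-fold and E2f8 by 2.92 ± 0.33. Cdk4, the kinase of the D cyclins, rose by 2.54 ± 0.38, while its partner Ccnd1 was at 981, 469 and 1131 in UGE and 1066, 714, 678 and 1466 in Sca-1Neg, where the groups overlapped (log2 difference -0.21 ± 0.34, adjusted p = 0.682). Rb1, the pocket protein that holds E2f factors inactive, fell (log2 difference -1.07 ± 0.31, adjusted p = 0.0198). For Rb1, the call was lost without UGE replicate 2 or 3 (adjusted p up to 0.0805).

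Arrest genes were not lower as a group. Of 16 inhibitors and arrest genes, 6 were called higher and 3 lower. Cdkn1c (p57), an inhibitor of cyclin-dependent kinases from an imprinted locus, gave signals of 5877, 6538 and 5600.1 in UGE and 269.8, 429.6, 280.0 and 416 in Sca-1Neg (log2 difference 4.14 ± 0.52, adjusted p = 6.56e-05), and Rprm, a p53-induced gene of G2 arrest, 5771, 1302 and 5398 in UGE and 113, 104, 114 and 170.0 in Sca-1Neg (log2 difference 4.81 ± 0.44, adjusted p = 5.33e-06). Cdkn1a (p21) rose by 1.34 ± 0.41 and Cdkn2b (p15) by 2.61 ± 0.50. High signals for these inhibitors and for the genes of mitosis thus stood on the same 3 arrays. In the other direction, Cdkn2c (p18) fell (-1.54 ± 0.38) and Gas6, the ligand of Axl family receptors, (-2.46 ± 0.47). Cdkn1b (p27) was lower on each UGE array but was not called, at 340.0, 373 and 373 in UGE and 481, 480.2, 587 and 785 in Sca-1Neg (log2 difference -0.66 ± 0.35, adjusted p = 0.178). For Cdkn1a, the call was lost without UGE replicate 2 or 3 or Sca-1Neg replicate 1 or 2 or 3 (adjusted p up to 0.129). The number of arrest genes lower was 1 against Sca-1Neg replicates 3 and 4 alone.

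The machinery for DNA repair, chromatin, ribosome assembly and splicing rose more widely than it rose strongly. Repair and checkpoint genes were higher for 26 of 42 members (median 1.29, none lower), among them Brca1, which acts in homologous recombination (634, 889.5 and 1127 in UGE and 54.2, 76.8, 80.3 and 61.0 in Sca-1Neg, log2 difference 3.68 ± 0.32, adjusted p = 3.02e-06), the checkpoint kinase Chek1 (3.13 ± 0.30) and Rad51ap1, a recombination protein (3.27 ± 0.21). Chromatin genes were higher for 32 of 51 and lower for 3. Ezh2, the methyltransferase of Polycomb complex 2, gave 2103, 2557 and 2799 in UGE and 256, 242, 321 and 259 in Sca-1Neg (log2 difference 3.20 ± 0.24, adjusted p = 9.09e-07), and Uhrf1, which carries DNA methylation through replication, 816, 816 and 930.3 in UGE and 46.9, 44.4, 57.5 and 76.8 in Sca-1Neg (log2 difference 3.95 ± 0.28, adjusted p = 7.32e-07). The paralog Ezh1, known from cells that do not divide, fell (log2 difference -0.95 ± 0.28, adjusted p = 0.0224). The Polycomb readers split in the same way, Cbx2 higher by 3.18 ± 0.30 and Cbx7 lower, at -2.15 ± 0.41. For Ezh1, the call was lost without UGE replicate 1 or 3 or Sca-1Neg replicate 4 (adjusted p up to 0.0911). The number of chromatin genes lower was 1 without UGE replicate 1.

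Ribosome biogenesis had 30 of 55 members higher and none lower, with a median of 0.91 and a range from -0.02 to 1.70. Nop58, a core protein of the small nucleolar particles that guide methylation of ribosomal RNA, gave 1362, 1636 and 1644 in UGE and 474, 336, 533 and 592 in Sca-1Neg (log2 difference 1.70 ± 0.36, adjusted p = 0.00362), and Dkc1, which makes pseudouridine, rose by 1.61 ± 0.32. The proteins of the ribosome itself were called for 3 of 40 only, a share below the 16.3% of all genes, although their median was 0.56. Splicing factors were higher for 28 of 46 with none lower. The 2 of them specific to epithelia, Esrp1 and Esrp2, changed most in the case of Esrp2 (log2 difference 2.32 ± 0.60, adjusted p = 0.0112), and Esrp1 stood at 2716, 4968 and 4319.8 in UGE and 918, 515, 2034 and 725 in Sca-1Neg (log2 difference 2.09 ± 0.40, adjusted p = 0.00187). The counts of these groups depended on the arrays more than those of mitosis. Against Sca-1Hi, 14 splicing factors were called higher. For Esrp2, the call was lost without UGE replicate 2 (adjusted p up to 0.0641). The number of ribosome biogenesis genes higher was 17 without UGE replicate 2, 18 without UGE replicate 3, 19 without Sca-1Neg replicate 1 or 2 and 11 against Sca-1Neg replicates 3 and 4 alone. The number of ribosomal protein genes higher was 1 without UGE replicate 2 or Sca-1Neg replicate 2, 12 without Sca-1Neg replicate 3, 28 against Sca-1Neg replicates 1 and 2 alone and 1 against Sca-1Neg replicates 3 and 4 alone. The number of splicing factors higher was 13 against Sca-1Neg replicates 3 and 4 alone.

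**Figure D2:**
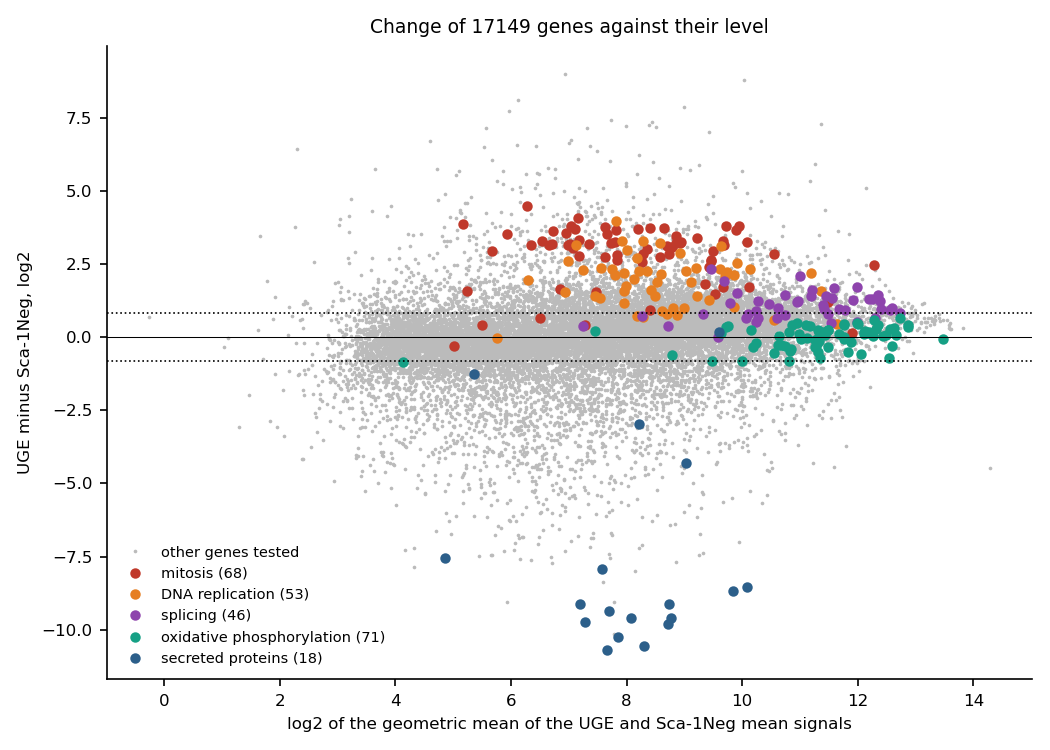
Log2 difference of UGE from Sca-1Neg (vertical axis) against the mean log2 signal of both groups (horizontal axis) for members of 5 lists, each point a gene. Mitosis (median 3.14) and DNA replication (2.08) lie mostly above 0 over the range of signals, splicing factors (0.98) lie nearer to 0, oxidative phosphorylation (0.06) lies around 0, and the secreted proteins (-9.13) lie far below.

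Regulators of endoderm and surface epithelium were higher in UGE for 20 of 45 and lower for 5. The largest log2 difference in the list, 8.98 with no floor applied, was that of a gene not named here. Trp63, the p53 relative that maintains stratified epithelium, gave 2407, 3820.4 and 3332 in UGE and 141, 104, 909 and 440.4 in Sca-1Neg (log2 difference 3.5 ± 0.74, adjusted p = 0.00351), and Klf5, a Krüppel-like factor of proliferating epithelium, 2316, 4539 and 3017 in UGE and 454, 303, 610.3 and 457 in Sca-1Neg (log2 difference 2.84 ± 0.38, adjusted p = 0.000127). Neither gene had overlapping groups, but Trp63 was higher on Sca-1Neg replicates 3 and 4 than on 1 and 2. Sox11, a factor of embryonic progenitors, was at 2954, 3849 and 4014 in UGE and 60.0, 68.4, 56.9 and 78.3 in Sca-1Neg (log2 difference 5.77 ± 0.32, adjusted p = 7.6e-08), and its relative Sox4 rose by 2.66 ± 0.55. Bnc1, a zinc finger protein of basal keratinocytes, was at least 10.1-fold higher, Six4 rose by 2.95 ± 0.39, Isl1, a LIM homeobox factor of pelvic and genital development, by 2.48 ± 0.63, and Onecut2 was at least 6.46-fold higher. Foxa1, a pioneer factor of endodermal epithelium, rose by 1.63 ± 0.48, although Sca-1Neg replicate 3, at 5970, lay within the UGE range of 4584 to 7895. For Foxa1, the call was lost without UGE replicate 2 or 3 or Sca-1Neg replicate 1 or 2 (adjusted p up to 0.0925). The number of endoderm and surface regulators higher was 12 against Sca-1Neg replicates 3 and 4 alone. The number of endoderm and surface regulators lower was 3 without UGE replicate 2 or 3.

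Transcription factors of prostate and secretory epithelium were higher for 11 of 37 and lower for 4, beside 16.3% and 12.9% of all genes, with a median of -0.01. The number lower ran from 1 to 5 over single arrays left out. Spdef, a factor of secretory and goblet cell maturation, was among those that fell. It gave 7.22, 7.56 and 3.36 in UGE and 158, 96.7, 1465 and 226 in Sca-1Neg and was at least 13.3-fold lower in UGE (adjusted p = 0.000264). Tbx1 fell (-2.05 ± 0.43) and Tbx4 (-1.45 ± 0.37), and Hnf4a, a hepatic and intestinal regulator, (-1.48 ± 0.42). Hoxb13, the posterior Hox gene of the adult prostate, was not called, at 717, 1888 and 748 in UGE and 789.5, 705, 8296 and 1576 in Sca-1Neg (log2 difference -0.71 ± 0.66, adjusted p = 0.459), and Sca-1Neg replicate 3 alone stood far above the rest. Gata2, a GATA family transcription factor, was not called either, at 2449.8, 1374 and 2534 in UGE and 2546, 1806, 3442 and 2656 in Sca-1Neg (log2 difference -0.32 ± 0.29, adjusted p = 0.448). Among 30 Hox genes 10 rose and none fell, with Hoxd13, the gene of the genital tubercle and sinus, at 2218, 3299.8 and 2287 in UGE and 573, 444, 894 and 1234 in Sca-1Neg (log2 difference 1.81 ± 0.61, adjusted p = 0.0407). Against Sca-1Hi, 4 of the 30 Hox genes were higher and 1 lower, with a median of -0.04, beside 15.8% and 12.0% of all genes. For Hnf4a, the call was lost without UGE replicate 2 or 3 or Sca-1Neg replicate 1 or 2 (adjusted p up to 0.0787). For Hoxd13, the call was lost without UGE replicate 1 or 2 or 3 or Sca-1Neg replicate 1 or 2 (adjusted p up to 0.138). The number of Hox genes higher was 6 without UGE replicate 3 and 4 against Sca-1Neg replicates 3 and 4 alone.

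Against the adult cells with Sca-1, the values were partly smaller. Trp63 differed by 1.03 from Sca-1Hi and 0.66 from Sca-1Lo, neither called, and Klf5 by 0.11 from Sca-1Hi, not called, and 1.62 from Sca-1Lo. Sox11 stayed high against both, at 4.98 and 4.39, as did Bnc1 (4.58 and 4.95) and Onecut2 (3.02 and 2.77). Foxq1, a forkhead factor not called against Sca-1Neg (0.68 ± 0.32), was lower than in Sca-1Hi (-2.14). Over the list of endoderm regulators, 10 were higher than in Sca-1Hi and 9 lower, with a median of 0.16, beside 15.8% and 12.0% of all genes.

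**Figure D3:**
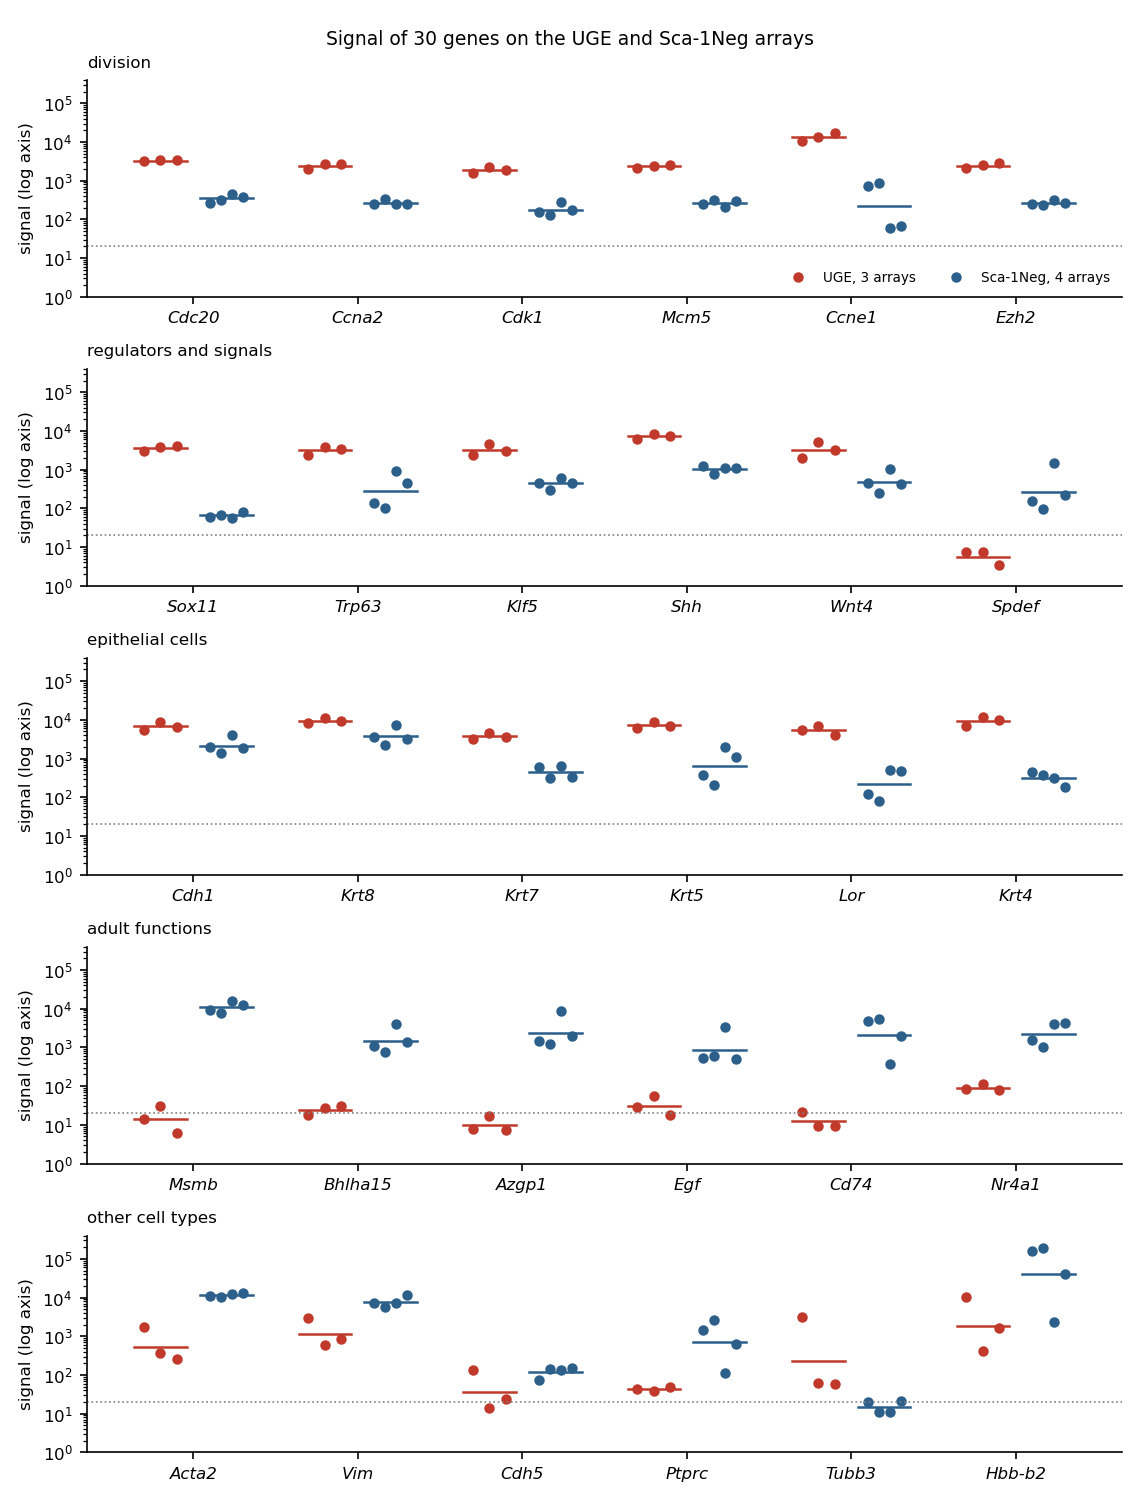
PLIER signal (log scale) of 30 genes on the 3 UGE and 4 Sca-1Neg arrays, each point an array and each bar the geometric mean of a group, with a dotted line at the floor of 20. Genes of division (Cdc20, 3190.0 to 3445 in UGE against 267 to 456) separate without overlap, whereas genes of other cell types (Tubb3, 3176 on UGE replicate 1 against 63.1 and 58.7) spread widely within a group.

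Signalling genes changed member by member. In the hedgehog pathway, 8 of 21 genes rose and 4 fell. The ligand Shh, made by the sinus epithelium, gave 6321, 8139.6 and 7606 in UGE and 1232, 767, 1127 and 1073 in Sca-1Neg (log2 difference 2.82 ± 0.42, adjusted p = 0.000261). Its receptor and target Ptch1 rose to 1948, 1773 and 2156 in UGE and 561, 560.2, 613 and 955 in Sca-1Neg (log2 difference 1.58 ± 0.46, adjusted p = 0.0205). The groups did not overlap for either Shh or Ptch1. Gli1, another target, was at 70.0, 40.7 and 57.5 in UGE and 50.9, 51.9, 52.7 and 97.6 in Sca-1Neg, with no separation (log2 difference -0.15 ± 0.42, adjusted p = 0.826). Hhip, which binds hedgehog ligands and is made by responding cells, fell (-5.31 ± 0.88) and the co-receptor Gas1, a stromal gene as well, (-2.93 ± 1.0) with overlap between the groups. For Gli3, the repressor, the probe sets disagreed, since the brightest was lower in UGE (log2 difference -2.25 ± 0.42, adjusted p = 0.00135) and the one of largest change higher (3.06). For Ptch1, the call was lost without UGE replicate 2 or 3 or Sca-1Neg replicate 1 (adjusted p up to 0.0731). For Gas1, the call was lost without UGE replicate 2 or 3 or Sca-1Neg replicate 1 or 2 or 4 (adjusted p up to 0.215). The number of hedgehog genes higher was 3 without UGE replicate 2, 4 without Sca-1Neg replicate 1, 5 without UGE replicate 3 and 3 against Sca-1Neg replicates 3 and 4 alone. The number of hedgehog genes lower was 2 without UGE replicate 2 or 3 or Sca-1Neg replicate 1, 2 or 4 and 2 against Sca-1Neg replicates 3 and 4 alone.

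Of 59 Wnt genes, 16 rose and 6 fell, a share of rises above the 16.3% of all genes. The ligands Wnt4, Wnt7b, Wnt6 and Wnt10a were all higher. Wnt4 gave 2021, 5142 and 3251 in UGE and 441, 249.6, 1042 and 437 in Sca-1Neg (log2 difference 2.77 ± 0.49, adjusted p = 0.00108), and Wnt10a 300.4, 500.0 and 281 in UGE and 12.0, 7.84, 7.34 and 10.6 in Sca-1Neg, at least 17.4-fold higher. The receptors Fzd6 and Fzd3 rose by 3.18 ± 0.34 and 2.73 ± 0.31, the co-receptor Ror2 by 2.68 ± 0.52, and the soluble inhibitor Sfrp1 by 3.18 ± 0.73. Another soluble inhibitor, Sfrp5, fell (-2.96 ± 0.49), and the ligand Wnt5b (-2.29 ± 0.48). Axin2 and Lef1, known targets of canonical Wnt signalling, were not called. Axin2 stood at 402, 453 and 905 in UGE and 176, 151, 752 and 379 in Sca-1Neg (log2 difference 0.89 ± 0.47, adjusted p = 0.177), and Lef1 at 546, 118 and 641 in UGE and 129.5, 139, 122 and 184 in Sca-1Neg (log2 difference 1.28 ± 0.48, adjusted p = 0.0638), where UGE replicate 2 lay with the adult arrays.

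In the fibroblast growth factor pathway the epithelial receptor Fgfr2 rose (2309, 4439 and 4076 in UGE and 1041, 545, 775 and 1846 in Sca-1Neg, log2 difference 1.87 ± 0.60, adjusted p = 0.0333), as did Fgfr3 (3.15 ± 0.41) and the carrier Fgfbp1 (2.67 ± 0.48). The ligands Fgf7, a mesenchymal product, and Fgf1 fell (-3.88 ± 1.01 and -2.34 ± 0.54). The pathway as a whole had 4 of 26 higher and 3 lower, shares close to those of all genes. TGF-beta and BMP genes moved in both directions. The receptor Acvr2b was higher by 2.46 ± 0.35, Acvr1b by 1.78 ± 0.37, Smad3 by 2.28 ± 0.31 and the decoy receptor Bambi by 2.08 ± 0.30. The receptors Bmpr1b (-2.28 ± 0.80) and Tgfbr3 (-1.85 ± 0.54) fell. So did the ligands and antagonists Bmp6 (-5.25 ± 0.54), Tgfb3 (-2.85 ± 0.74) and Fst (-3.93 ± 0.90). Bmp4, a ligand of prostate budding, was not called, at 767, 336 and 428 in UGE and 149.5, 176, 251 and 537 in Sca-1Neg (log2 difference 0.97 ± 0.91, adjusted p = 0.459). For Fgfr2, the call was lost without UGE replicate 2 or 3 or Sca-1Neg replicate 1 or 2 or 3 (adjusted p up to 0.118). For Fgf7, the call was lost without UGE replicate 2 (adjusted p up to 0.058). For Bmpr1b, the call was lost without UGE replicate 1 or 2 or 3 or Sca-1Neg replicate 1 or 3 or 4 (adjusted p up to 0.127). For Tgfbr3, the call was lost without UGE replicate 1 or 2 or 3 or Sca-1Neg replicate 4 (adjusted p up to 0.0713). For Tgfb3, the call was lost without UGE replicate 2 (adjusted p up to 0.0691). The number of fibroblast growth factor genes higher was 2 without UGE replicate 3 or Sca-1Neg replicate 1 or 2 and 2 against Sca-1Neg replicates 3 and 4 alone. The number of fibroblast growth factor genes lower was 1 without UGE replicate 2 and 1 against Sca-1Neg replicates 3 and 4 alone.

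Among Notch genes (6 of 32 higher, 4 lower, shares of 18.8% and 12.5% that lie close to the 16.3% and 12.9% of all genes) the ligand Jag2 rose by 1.71 ± 0.59. The ligand Dll1 fell (-1.41 ± 0.39) and the gamma-secretase subunit Psen2 (-2.30 ± 0.33), and Notch1 itself was not called (log2 difference 0.89 ± 0.40, adjusted p = 0.117). Of the enzymes that make retinoic acid, one rose and another fell. Aldh1a3, a synthetic enzyme, was at 1186, 622 and 2293 in UGE and 18.3, 24.3, 69.0 and 112 in Sca-1Neg (log2 difference 4.79 ± 0.89, adjusted p = 0.00149), and Aldh1a1, another one, at 387, 593 and 418 in UGE and 1510.5, 1410.4, 7821 and 3893 in Sca-1Neg (log2 difference -2.63 ± 0.52, adjusted p = 0.00206). Each was separated without overlap, in opposite directions. The binding protein Crabp2 was at least 20.6-fold higher, and the receptors Rarb and Rxra rose by 2.99 ± 0.73 and 2.73 ± 0.48, while the carrier Rbp4 fell (-3.80 ± 0.63). For Jag2, the call was lost without UGE replicate 1 or 2 or 3 or Sca-1Neg replicate 1 or 2 (adjusted p up to 0.152). For Dll1, the call was lost without UGE replicate 3 (adjusted p up to 0.0818). The number of Notch genes higher was 1 without UGE replicate 2, 2 without UGE replicate 1 or 3 or Sca-1Neg replicate 1 or 2 and 1 against Sca-1Neg replicates 3 and 4 alone.

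Growth factor ligands differed in both directions. Egf, the precursor of epidermal growth factor, gave 29.0, 56.0 and 18.3 in UGE and 545, 616, 3452 and 511 in Sca-1Neg (log2 difference -4.82 ± 0.76, adjusted p = 0.000426). The ligands Tgfa and Btc rose by 1.57 ± 0.40 and 1.54 ± 0.40, and the receptor Erbb3 by 1.69 ± 0.37, where one of its 2 probe sets was called higher and the other lower. Egfr was not called (log2 difference 0.92 ± 0.47, adjusted p = 0.161), and its probe sets disagreed in direction, with -1.48 on the one of largest change. In the insulin-like growth factor pathway the fetal ligand Igf2 (4.92 ± 0.37), the receptor Igf1r (0.86 ± 0.27) and the binding protein Igfbp2 (2.01 ± 0.57) rose, and Igf1 was not called (log2 difference 1.18 ± 1.0, adjusted p = 0.41). Ephrins and their receptors, which position cells by contact, were higher for 9 of 19 and lower for 1. Efnb2 gave 3653, 4025 and 4369 in UGE and 443, 326, 315 and 711 in Sca-1Neg (log2 difference 3.24 ± 0.30, adjusted p = 5.74e-06), Epha7 rose by 3.96 ± 0.65, Efna5 by 3.45 ± 0.47 and Ephb3 by 2.99 ± 0.44. Of 36 guidance genes 10 rose, including the Slit receptor Robo2 (289.7, 938 and 780.3 in UGE and 40.4, 23.5, 26.4 and 31.9 in Sca-1Neg, log2 difference 4.32 ± 0.41, adjusted p = 6.6e-06), the netrin receptor Unc5c (3.20 ± 0.30) and the semaphorins Sema3c and Sema3d (2.62 ± 0.52 and 4.26 ± 0.82), and 5 fell, including Ntn1 itself, at least 5.89-fold lower in UGE. For Igf1r, the call was lost without UGE replicate 1 or 2 or 3 or Sca-1Neg replicate 2 (adjusted p up to 0.102). For Igfbp2, the call was lost without UGE replicate 1 or 3 or Sca-1Neg replicate 1 (adjusted p up to 0.0643).

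Defining epithelial genes were present on all arrays of both groups, and part of them were higher in UGE. Cdh1 (E-cadherin) gave 5468, 9033 and 6359.8 in UGE and 1987, 1376, 4156 and 1914 in Sca-1Neg (log2 difference 1.65 ± 0.35, adjusted p = 0.00318), and the simple keratin Krt8 8172, 11140.3 and 9219.9 in UGE and 3654, 2239, 7239 and 3275 in Sca-1Neg (log2 difference 1.34 ± 0.34, adjusted p = 0.0104). Both were separated, with Sca-1Neg replicate 3 nearest to UGE. Krt7, a keratin of ducts and urothelium, rose by 3.08 ± 0.32 and Krt19 by 1.76 ± 0.43, and Epcam was higher on each UGE array but not called (log2 difference 1.27 ± 0.49, adjusted p = 0.0728). In total 7 of 19 simple epithelial genes rose and 2 fell, Prom1, a membrane protein of apical protrusions, (-2.36 ± 0.37) and Cldn3 (-1.27 ± 0.43). Against Sca-1Hi none was higher and 1 lower, with a median of 0.49. In these bulk samples, fewer epithelial cells and less RNA of a gene in each cell cannot be told apart. For Krt8, the call was lost without UGE replicate 2 (adjusted p up to 0.0513). For Cldn3, the call was lost without UGE replicate 2 or 3 or Sca-1Neg replicate 1 or 3 or 4 (adjusted p up to 0.13). The number of simple epithelial genes higher was 4 without UGE replicate 2, 11 without Sca-1Neg replicate 3, 12 against Sca-1Neg replicates 1 and 2 alone and 3 against Sca-1Neg replicates 3 and 4 alone. The number of simple epithelial genes lower was 1 without UGE replicate 2 or 3 or Sca-1Neg replicate 1, 3 or 4, 1 against Sca-1Neg replicates 1 and 2 alone and 1 against Sca-1Neg replicates 3 and 4 alone.

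Basal keratins rose as well. Krt5 was at 6090.2, 8559 and 7072 in UGE and 382, 203, 2008 and 1069.8 in Sca-1Neg (log2 difference 3.49 ± 0.65, adjusted p = 0.0014), and Krt15 at 10642, 11424 and 11266 in UGE and 712, 429, 2696 and 1079 in Sca-1Neg (log2 difference 3.52 ± 0.49, adjusted p = 0.000166). All Sca-1Neg arrays lay below UGE, and replicates 1 and 2 lay lowest. Krt14 rose by 2.80 ± 0.80, Krt17 by 4.26 ± 0.93, and the adhesion genes Lama3, Dsc3 and Col17a1 by 2.51 ± 0.63, 2.45 ± 0.50 and 2.38 ± 0.67. In all 10 of 20 basal genes rose and 1 fell, the adhesion receptor Cd44 (-2.29). The median of 1.65 was 2.90 against replicates 1 and 2 alone and 0.68 against replicates 3 and 4 alone, where 13 and 6 members were higher. Against Sca-1Hi, 1 basal gene was higher and 4 lower, with a median of -0.82. The laminin receptor genes Itga6 (-0.75, not called) and Itgb4 (-2.24, called lower) were compared with Sca-1Hi as well, and Krt5 differed from it by -0.12, not called. For Krt14, the call was lost without UGE replicate 2 or 3 or Sca-1Neg replicate 1 or 2 (adjusted p up to 0.0855). For Lama3, the call was lost without UGE replicate 2 (adjusted p up to 0.0519). For Col17a1, the call was lost without UGE replicate 2 or 3 or Sca-1Neg replicate 1 or 2 (adjusted p up to 0.0679). The number of basal genes higher was 6 without UGE replicate 2.

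Genes of stratified squamous epithelium were higher for 14 of 31 and lower for 2. Lor (loricrin), the main protein of the cornified envelope, gave 5586, 6928 and 4146 in UGE and 119.9, 77.9, 515 and 468 in Sca-1Neg (log2 difference 4.64 ± 0.63, adjusted p = 0.000141). Krt4, a keratin of stratified mucosa, was at 7097, 11659.5 and 9895 in UGE and 451, 364, 318 and 187 in Sca-1Neg (log2 difference 4.90 ± 0.36, adjusted p = 8.6e-07), and Sprr1a, an envelope precursor, at 2169, 2535 and 2149 in UGE and 119.7, 89.8, 179.7 and 36.1 in Sca-1Neg (log2 difference 4.64 ± 0.46, adjusted p = 9.69e-06). No adult array of Sca-1Neg came near the UGE arrays for Krt4 or Sprr1a. S100a14 rose by 5.44 ± 0.32, Lypd3 was at least 29.5-fold higher, and Ivl (involucrin) at least 7.14-fold. Against Sca-1Hi, however, Krt4 differed by 0.00, Sprr1a by -0.04 and Ivl by -0.81, none called, whereas Lor (2.62), S100a14 (1.67) and Lypd3 (4.17) were higher there too. The 2 members that fell, S100a8 and S100a9, are also products of neutrophils, and on Sca-1Neg replicates 1 and 2 S100a9 was at 568 and 554, against 42.8 and 121 on replicates 3 and 4.

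Of 39 junction genes 16 rose and 7 fell. Cldn6, a claudin of embryonic epithelium, was at least 48.3-fold higher, while Cldn1, a claudin of mature barriers, gave 44.9, 49.6 and 61.2 in UGE and 179, 230.0, 543 and 671 in Sca-1Neg (log2 difference -2.77 ± 0.61, adjusted p = 0.00426). Desmosome genes rose, Dsp (desmoplakin) by 2.23 ± 0.45 and Dsg2 by 1.81 ± 0.41, and so did Gjb6, a connexin, by 3.81 ± 0.33. Of 13 genes of urothelium, a list that also holds Krt5 and Foxa1, 10 rose and none fell, with a median of 3.36. Against Sca-1Hi 6 of them were higher, beside 15.8% of all genes, with a median of 1.16. Uroplakins, the plaque proteins of the bladder surface, were among those that rose. Upk3a was at 934, 1842 and 1087 in UGE and 14, 16.7, 8.52 and 12.5 in Sca-1Neg, at least 61.6-fold higher, whereas Upk1b was well above the floor in both groups (4875, 6683 and 5819 in UGE and 1219.6, 873, 3966 and 1589 in Sca-1Neg, log2 difference 1.84 ± 0.42, adjusted p = 0.0057).

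The products of the adult gland were the largest decreases. Of 18 secreted proteins, 17 fell and none rose, with a median of -9.13, or -8.11 with signals set to at least the floor. Msmb, a small protein of seminal plasma, gave 14.1, 30.7 and 6.19 in UGE and 9093, 7583, 16029 and 12568 in Sca-1Neg and was at least 470.0-fold lower in UGE. Promoters of 2 such genes are shown for comparison with those of the division genes, and capitals mark the steroid hormone half-site AGAACA on either strand. They are Pbsn (probasin), a classical androgen target of rodent prostate, at least 561-fold lower, and 9530002B09Rik, also among the 15 largest falls.
Pbsn, chrX:77853501-77853750, minus strand: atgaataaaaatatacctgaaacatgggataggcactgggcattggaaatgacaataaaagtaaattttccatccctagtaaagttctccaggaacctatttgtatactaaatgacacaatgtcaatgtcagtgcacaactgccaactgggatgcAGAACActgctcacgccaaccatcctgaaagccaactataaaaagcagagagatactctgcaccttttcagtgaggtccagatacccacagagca
9530002B09Rik, chr4:122689009-122689258, plus strand: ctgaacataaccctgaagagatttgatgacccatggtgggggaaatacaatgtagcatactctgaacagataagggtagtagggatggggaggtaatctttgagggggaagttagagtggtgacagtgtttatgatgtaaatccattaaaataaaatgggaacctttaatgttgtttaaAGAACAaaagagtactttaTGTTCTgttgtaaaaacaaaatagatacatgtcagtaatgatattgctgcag
The half-site stood once in the Pbsn window, from -95 to -90, and 2 times in that of 9530002B09Rik. It stood in 12.3% of all promoters with a single start, in 5 of 10 of the secreted proteins and in 1 of 14 of the androgen-responsive genes. Of these 10 secreted proteins, 3 also held a CHR element and 4 a CCAAT box, beside the 31.4% and 62.7% of mitosis genes, and the Pbsn window held 1 CCAAT box, not marked above. These shares were not tested.

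Of the machinery that makes secreted proteins, few genes moved with the products. Translocation and folding in the endoplasmic reticulum had 7 of 50 members lower, a share close to the 12.9% of all genes, and none higher. Sec11c, the catalytic subunit of the signal peptidase, gave 279, 419.9 and 381 in UGE and 3144, 2142, 7899.8 and 2958 in Sca-1Neg (log2 difference -3.32 ± 0.39, adjusted p = 4.17e-05), and Ero1b, an oxidase of disulfide formation, 88.8, 142 and 96.1 in UGE and 1287, 755, 595 and 1324 in Sca-1Neg (log2 difference -3.13 ± 0.37, adjusted p = 3.82e-05). These were the largest falls of the list. The regulators above this machinery were lower for 7 of 15. Bhlha15 (Mist1), which builds the secretory apparatus of exocrine cells, gave 18.0, 27.5 and 30.1 in UGE and 1098, 763, 4096 and 1359 in Sca-1Neg (log2 difference -5.90 ± 0.75, adjusted p = 7.57e-05). Edem1, of the degradation of misfolded protein, fell (-2.92 ± 0.80), Herpud1 (-2.34 ± 0.47), and the stress sensor Atf6 (-1.5 ± 0.34). The folding list had a median of -0.50, which was 0.01 against Sca-1Neg replicates 1 and 2 alone and -1.01 against replicates 3 and 4 alone. For Edem1, the call was lost without UGE replicate 2 (adjusted p up to 0.0521). The number of folding genes lower was 12 without Sca-1Neg replicate 2 and 16 against Sca-1Neg replicates 3 and 4 alone.

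Androgen-responsive genes were lower for 12 of 26 and higher for 3. Azgp1, a secreted lipid-mobilizing protein, was at 7.66, 17.1 and 7.23 in UGE and 1498, 1201, 8875 and 1959 in Sca-1Neg, at least 118-fold lower. Zbtb16, a transcription factor induced by androgens and glucocorticoids, was at least 30.7-fold lower, Slc45a3 (prostein) at least 33.8-fold, and Mme (neprilysin) fell (-3.57 ± 0.54). For Azgp1, Slc45a3 and Mme, Sca-1Neg replicate 3 was the highest adult array of the group. Not all moved down, since the transporter Abcc4 (2.16 ± 0.38) and the lipid enzyme Acsl3 (1.60 ± 0.33) rose. Of 24 genes of steroid receptors and androgen metabolism, 2 rose and 6 fell, beside 16.3% and 12.9% of all genes. The other 16 were not called, and the median of the list was -0.01. Among those that fell, Nr3c2 (mineralocorticoid receptor) gave 17.3, 33.4 and 21.2 in UGE and 139, 128, 251 and 308 in Sca-1Neg (log2 difference -3.06 ± 0.36, adjusted p = 4.12e-05), and Esr1 differed by -1.65 ± 0.35. The number of androgen-responsive genes higher was 5 without Sca-1Neg replicate 3 and 5 against Sca-1Neg replicates 1 and 2 alone.

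Tissue kallikreins, secreted proteases, moved in both directions. Klk13 was at 16786, 34609 and 20305 in UGE and 501, 580.4, 35.9 and 45.4 in Sca-1Neg (log2 difference 7.27 ± 0.96, adjusted p = 0.000108), and Klk8, a protease of stratified epithelium, at 314, 466 and 303 in UGE and 25.3, 53.5, 27.5 and 49.8 in Sca-1Neg (log2 difference 3.26 ± 0.32, adjusted p = 8.32e-06). The 2 Sca-1Neg arrays with higher Klk13, replicates 1 and 2, are those with higher Ccne1 and leukocyte genes. Klk1b24 fell (-3.49 ± 0.43). The kallikreins of the Klk1b cluster are close copies, and their probe sets may share transcripts. Of 16 kallikreins measured, 4 rose and 2 fell. The number of kallikreins higher was 2 without UGE replicate 2 or Sca-1Neg replicate 1 and 2 against Sca-1Neg replicates 3 and 4 alone. The number of kallikreins lower was 1 without UGE replicate 2 or 3, 4 against Sca-1Neg replicates 1 and 2 alone and 1 against Sca-1Neg replicates 3 and 4 alone.

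Enzymes that finish and store secreted products changed member by member. Among glycosylation enzymes 4 of 31 rose and 7 fell, shares of 12.9% and 22.6% beside 16.3% and 12.9% of all genes. Mgat5 and Gcnt1, which branch N- and O-glycans, rose by 2.93 ± 0.36 and 2.75 ± 0.45, and Gcnt2, Man1a and Fut8 fell (-3.63 ± 0.34, -3.21 ± 0.45 and -2.23 ± 0.31), Gcnt2 on all 6 of its probe sets. Of 25 zinc transporters and metallothioneins 4 rose and 4 fell, shares of 16.0% each that lie close to the 16.3% and 12.9% of all genes. The number lower ran from 2 to 6 over single arrays left out. Slc30a2, which loads zinc into vesicles, was at 16.5, 12.2 and 10.5 in UGE and 179, 162, 1840.4 and 296 in Sca-1Neg, at least 17.7-fold lower, and the importer Slc39a10 at 3378, 5459.6 and 4726 in UGE and 483, 468, 1097 and 789 in Sca-1Neg (log2 difference 2.74 ± 0.35, adjusted p = 8.99e-05). The metallothioneins Mt1 and Mt2 fell (-1.29 ± 0.35 and -1.36 ± 0.38). Of the arginases that feed polyamine synthesis, the cytosolic Arg1 rose (450.0, 962 and 595 in UGE and 20.6, 40.5, 47.6 and 19.1 in Sca-1Neg, log2 difference 4.43 ± 0.42, adjusted p = 6.95e-06) and the mitochondrial Arg2 fell (91.3, 106 and 135 in UGE and 644, 407, 1460.3 and 371 in Sca-1Neg, log2 difference -2.49 ± 0.56, adjusted p = 0.00502). Lysosomal genes fell for 12 of 42, such as the mannosidase Man2b1 (-1.90 ± 0.33) and the sulfatase Arsb (-1.76 ± 0.32), and none rose. For Mt1, the call was lost without UGE replicate 3 (adjusted p up to 0.0775). For Mt2, the call was lost without UGE replicate 2 or 3 (adjusted p up to 0.0877). The number of lysosomal genes lower was 7 without UGE replicate 2 or 3.

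In metabolism, glycolysis rose for 11 of 21 genes and fell for 2. Pfkl, a phosphofructokinase, gave 3177, 4538 and 3464 in UGE and 522, 451, 932 and 818 in Sca-1Neg (log2 difference 2.50 ± 0.27, adjusted p = 2.09e-05), and Slc2a1 (Glut1), the constitutive glucose carrier, 3162, 5703 and 3954 in UGE and 758, 602, 1357 and 1062 in Sca-1Neg (log2 difference 2.20 ± 0.37, adjusted p = 0.0007). Slc2a4 (Glut4), the insulin-dependent carrier of muscle and fat, gave 79.7, 59.7 and 54.5 in UGE and 969, 728, 420.0 and 2548 in Sca-1Neg (log2 difference -3.87 ± 0.47, adjusted p = 4.92e-05), where Sca-1Neg replicate 4, the array with the most muscle signal, was highest. Hk2 rose by 2.21 ± 0.43 and Pdk1, which holds pyruvate from the mitochondria, by 2.35 ± 0.27. Oxidative phosphorylation, in contrast, had no member called of 71, with limma differences from -0.86 to 0.65 and 3 at an unadjusted p under 0.05. The counts moved with the Sca-1Neg arrays used, as they did over all genes. Against replicates 1 and 2 alone 13 members were higher (median 0.42), beside 4392 of all 17149 genes (median 0.22). Against replicates 3 and 4 alone 5 were lower (median -0.30), beside 2033 of all genes (median -0.02). Without replicate 2, 4 members were lower, beside 2123 of all genes. Serine, glycine and one-carbon genes rose for 14 of 27 and fell for 2. Gldc, which breaks down glycine into one-carbon units, was at least 18.6-fold higher, Psat1 of serine synthesis rose by 2.84 ± 0.54, and the mitochondrial Mthfd2 fell (-1.96 ± 0.32) while its relative Mthfd1l rose by 1.8 ± 0.27. The number of one-carbon genes lower was 1 without UGE replicate 1, 2 or 3 or Sca-1Neg replicate 1, 2 or 3 and 1 against Sca-1Neg replicates 1 and 2 alone.

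Cholesterol and fatty acid synthesis had 7 of 35 genes higher and 3 lower against Sca-1Neg, shares of 20.0% and 8.57% beside 16.3% and 12.9% of all genes. Against Sca-1Hi and Sca-1Lo the counts higher were 16 and 16. Hmgcs1, at the start of the pathway, rose by 1.57 ± 0.33 against Sca-1Neg and differed by 2.0 from Sca-1Hi, and Sqle, the epoxidase, by 1.34 ± 0.31 and 2.85. The desaturases Scd1 and Scd2 moved in opposite directions, Scd1 at 195, 78.7 and 312 in UGE and 782, 858, 4764 and 1502 in Sca-1Neg (log2 difference -3.14 ± 0.62, adjusted p = 0.00221) and Scd2 at 10316, 13514 and 14148 in UGE and 3979, 3693, 9127 and 7719 in Sca-1Neg (log2 difference 1.14 ± 0.32, adjusted p = 0.0177). Glutathione and xenobiotic enzymes were lower for 12 of 38 and higher for 4, with Gpx3, the extracellular peroxidase, at 87.8, 44.9 and 37.2 in UGE and 941, 749, 4214 and 1272 in Sca-1Neg (log2 difference -4.72 ± 0.67, adjusted p = 0.000181), Ephx1, an epoxide hydrolase, lower (-4.03 ± 0.34), and Mgst1 and Txnrd1 higher by 1.98 ± 0.43 and 1.47 ± 0.28. For Scd2, the call was lost without UGE replicate 2 or 3 or Sca-1Neg replicate 1 (adjusted p up to 0.0733). The number of cholesterol and fatty acid genes higher was 3 without UGE replicate 2 or 3 or Sca-1Neg replicate 1, 4 without Sca-1Neg replicate 2, 13 against Sca-1Neg replicates 1 and 2 alone and 2 against Sca-1Neg replicates 3 and 4 alone. The number of glutathione and xenobiotic genes higher was 7 against Sca-1Neg replicates 1 and 2 alone and 2 against Sca-1Neg replicates 3 and 4 alone.

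Genes of antigen presentation and of the interferon response were low throughout UGE. B2m, the light chain of class I molecules, gave 601, 472 and 522 in UGE and 9890.1, 7913, 13385 and 11621 in Sca-1Neg (log2 difference -4.31 ± 0.23, adjusted p = 6.41e-08), and H2-K1, a heavy chain, 172, 151 and 175 in UGE and 3414, 2936, 4680.2 and 2558 in Sca-1Neg (log2 difference -4.32 ± 0.24, adjusted p = 7.6e-08). Of 19 genes of antigen presentation 15 fell and none rose, with a median of -3.18. The summed signal of the list was 2228 to 2502 in UGE, 36831 and 40897 on Sca-1Neg replicates 1 and 2, which also had the most leukocyte signal, and 27401 and 27692 on replicates 3 and 4. Against replicates 1 and 2 alone 18 members were lower, and 15 against replicates 3 and 4 alone. Cd74, the invariant chain of class II molecules, was at 21.6, 9.55 and 9.37 in UGE and 4703, 5584, 382 and 1960.3 in Sca-1Neg, at least 103-fold lower in UGE. Interferon-responsive genes fell for 25 of 31, with a median of -2.33, and the counts were 22 against Sca-1Neg replicates 1 and 2 alone and 22 against replicates 3 and 4 alone. Irf7, the inducer of type I interferon, gave 20.9, 28.6 and 11.9 in UGE and 236, 321, 293 and 190.0 in Sca-1Neg (log2 difference -3.73 ± 0.30, adjusted p = 1.59e-06), and Igtp, a GTPase of cell-autonomous immunity, 96.6, 94.3 and 72.7 in UGE and 463, 466, 400.4 and 474 in Sca-1Neg (log2 difference -2.37 ± 0.24, adjusted p = 1.12e-05). Against Sca-1Hi and Sca-1Lo, whose summed leukocyte signals were 1644 to 3589 and 3507 to 11556, 24 and 25 members were lower, beside 12.0% and 12.2% of all genes, and medians were -2.93 and -2.85. Usp18, a protease that limits the response, was the 1 member higher (log2 difference 1.55 ± 0.34, adjusted p = 0.004).

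Complement and acute phase genes fell for 11 of 20 and rose for 3. Lcn2, an iron-binding protein of mucosal defence, was at 3.6, 3.01 and 4.57 in UGE and 680.0, 319.8, 965 and 819 in Sca-1Neg, at least 32.2-fold lower, and C2 at least 15.8-fold lower. Pigr, which carries antibodies across epithelium, fell (-5.54 ± 0.83). The complement inhibitor Cd55 rose by 2.0 ± 0.37.

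Immediate early genes, which respond within minutes to growth factors and also to the dissociation of tissue, fell for 22 of 36 and rose for 1. Fosb was at 5.78, 9.96 and 8.0 in UGE and 615, 398, 479 and 709 in Sca-1Neg, at least 26.8-fold lower in UGE, Atf3 at 44.6, 29.5 and 41.4 in UGE and 2808, 1803, 4862 and 3182 in Sca-1Neg (log2 difference -6.29 ± 0.71, adjusted p = 3.04e-05) and Nr4a1 at 85.7, 111 and 77.7 in UGE and 1544, 1028, 4032 and 4195 in Sca-1Neg (log2 difference -4.65 ± 0.86, adjusted p = 0.00141). The groups were separated for all 3, with the 4 Sca-1Neg arrays within an order of magnitude of each other. Against Sca-1Hi and Sca-1Lo, sorted in the same way, 29 and 27 members were lower, with medians of -3.24 and -2.89. Fosl2, a Fos relative, was the 1 member that rose (2917, 4947 and 4669.5 in UGE and 528, 344, 394 and 1114 in Sca-1Neg, log2 difference 2.94 ± 0.50, adjusted p = 0.000723). The part of dissociation and sorting in this difference was not tested and cannot be told apart from age.

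Genes of other cell types moved in both directions. Smooth muscle genes were lower in UGE for 15 of 17, with a median of -4.43. Acta2 gave 1773, 362 and 252 in UGE and 11174, 10629.5, 12046 and 13283 in Sca-1Neg (log2 difference -4.43 ± 0.53, adjusted p = 4.45e-05), and Myh11, the myosin of smooth muscle, 113, 27.9 and 14.7 in UGE and 7107, 4333, 3563 and 13903 in Sca-1Neg (log2 difference -7.44 ± 0.75, adjusted p = 1.09e-05). The summed signal of the list was 4407 to 6624 in UGE and 37746 to 135083 in Sca-1Neg. No defining smooth muscle gene was at the floor in Sca-1Neg, the cells called differentiated epithelium. Of 22 endothelial genes 14 fell against Sca-1Neg and 22 against Sca-1Hi, beside 12.9% and 12.0% of all genes. The list itself lay higher in Sca-1Hi than in Sca-1Neg, with a median difference of 3.88. Its summed signal was 28636.4 to 49152.6 in Sca-1Hi and 2891.5 to 7611.2 in Sca-1Neg. Cdh5 was at 133, 14 and 24.1 in UGE and 75.3, 146, 131 and 152 in Sca-1Neg, where UGE replicate 1 lay among the adult arrays (log2 difference -1.78 ± 0.60, adjusted p = 0.0406). Mesenchymal genes fell for 7 of 36, Vim (-2.74 ± 0.50) and Pdgfrb (-3.19 ± 0.79), and Fn1 rose (2.55 ± 0.77). Col3a1 overlapped, at 5982, 1192 and 1781 in UGE and 3990.2, 3828, 2407 and 9207 in Sca-1Neg. For Cdh5, the call was lost without UGE replicate 2 or 3 or Sca-1Neg replicate 2 or 3 or 4 (adjusted p up to 0.218). For Pdgfrb, the call was lost without UGE replicate 2 (adjusted p up to 0.0534). For Fn1, the call was lost without UGE replicate 2 or 3 or Sca-1Neg replicate 1 or 2 or 3 (adjusted p up to 0.0852). The number of endothelial genes lower was 7 without UGE replicate 2 or 3, 8 without Sca-1Neg replicate 2, 9 without Sca-1Neg replicate 4 and 7 against Sca-1Neg replicates 1 and 2 alone. The number of mesenchymal genes lower was 4 without UGE replicate 2.

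Leukocyte genes fell for 19 of 28 and rose for none. Ptprc (CD45) was at 43.2, 38.7 and 47.9 in UGE and 1424, 2619, 113 and 627 in Sca-1Neg (log2 difference -4.06 ± 0.83, adjusted p = 0.0027). The summed signal of the list ran from 1591 to 1926 in UGE, and was 26745 and 40786 on Sca-1Neg replicates 1 and 2 and 8089 and 14038 on replicates 3 and 4. Taken alone, replicates 1 and 2 gave 26 members lower in UGE and replicates 3 and 4 gave 8. Against Sca-1Hi 1 member was lower. The part of leukocyte RNA in the comparison of single genes was not tested. Against the same pairs of arrays, 62 and 60 mitosis genes were higher, beside 4392 and 1655 of all genes. These counts do not separate leukocyte RNA from other differences between the pairs. The number of leukocyte genes lower was 11 without UGE replicate 3 and 12 without Sca-1Neg replicate 1.

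Nerve genes rose for 9 of 21 and fell for 2. Nefm, a neurofilament, was at 2076, 126 and 162 in UGE and 2.15, 6.44, 8.6 and 21.4 in Sca-1Neg, at least 17.1-fold higher, and Tubb3, a neuronal tubulin, at 3176, 63.1 and 58.7 in UGE and 20.3, 10.9, 11.1 and 21.1 in Sca-1Neg. UGE replicate 1 carried most of this signal, and the count was 9 without it. Uchl1, a hydrolase of neurons and some epithelia, was high on all 3 UGE arrays (1159, 865 and 656 in UGE and 31.1, 40.7, 38.9 and 50.9 in Sca-1Neg, log2 difference 4.45 ± 0.36, adjusted p = 1.97e-06). Embryonic globin Hbb-y was at 5603, 14.8 and 984 on the UGE arrays. Genes of the genital ducts were also uneven within UGE, with Wt1 at 383, 43.4 and 311 and Wnt9b, a ligand of the Wolffian duct, at 343, 49.3 and 643, both lowest on replicate 2. For Wnt9b, the call was lost without UGE replicate 1 or 3 (adjusted p up to 0.0962). The number of nerve genes lower was 1 without UGE replicate 2 or 3 or Sca-1Neg replicate 2 or 4, 4 against Sca-1Neg replicates 1 and 2 alone and 1 against Sca-1Neg replicates 3 and 4 alone.

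**Figure D4:**
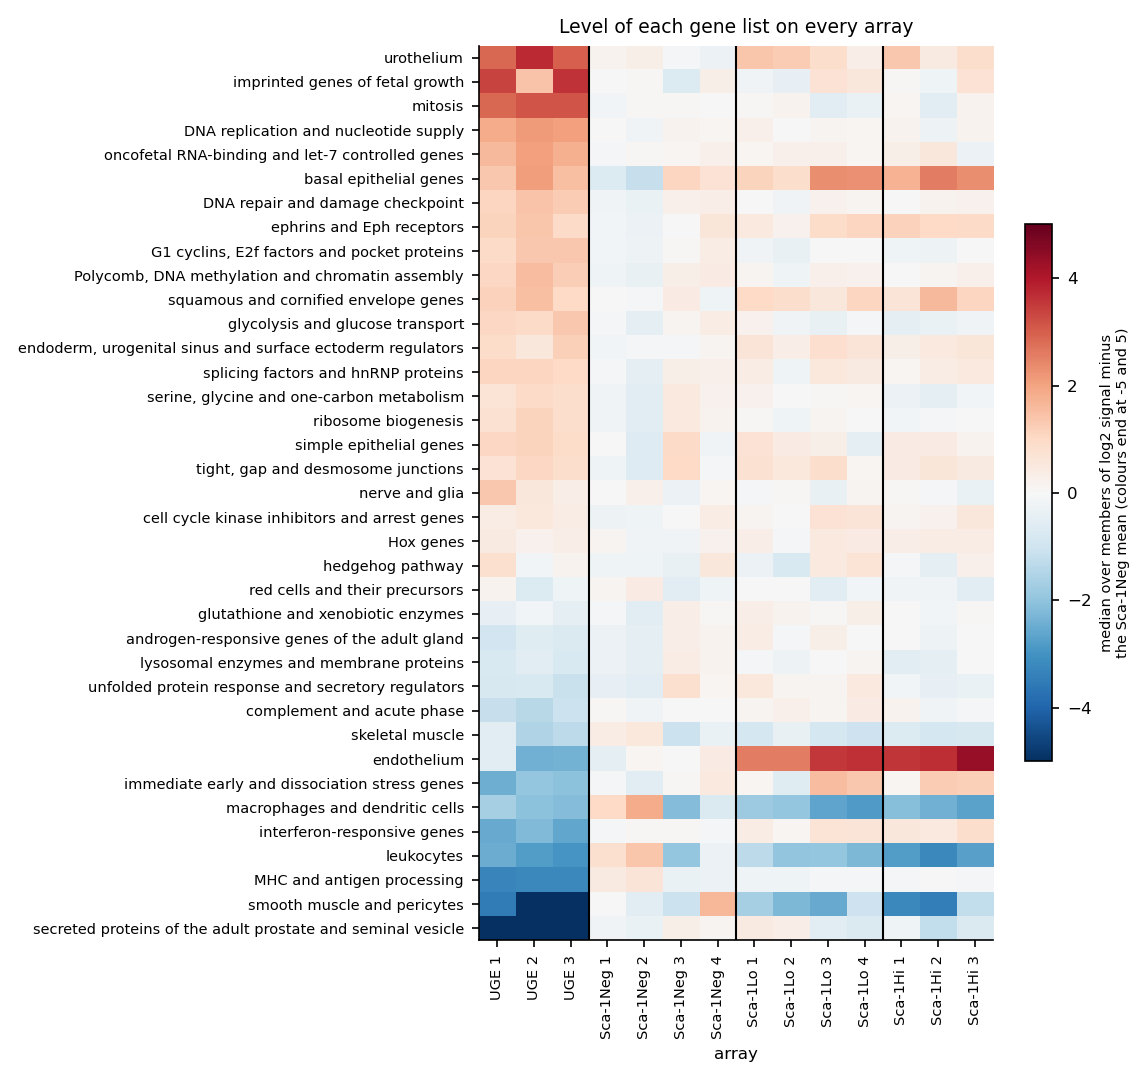
Median log2 signal of each gene list on the 14 arrays, relative to the mean of the 4 Sca-1Neg arrays, for lists with over 2 times the called share of all genes. Division lists are high on the UGE arrays alone (mitosis 2.86 to 3.16), leukocyte and macrophage lists vary among the Sca-1Neg arrays (leukocytes -1.93 to 1.4), and basal epithelial genes are lowest on Sca-1Neg replicates 1 and 2 (-0.69 and -1.16).

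The sex-linked genes differed between the groups. Xist, the RNA of the inactive X chromosome, was at 5069, 9983 and 8877 in UGE and 54.3, 62.2, 68.8 and 54.5 in Sca-1Neg (log2 difference 7.00 ± 0.25, adjusted p = 1.65e-09), high on each UGE array. The Y-linked gene Eif2s3y fell (-1.28 ± 0.39), and lay above the floor on each UGE array, at 339, 409.8 and 478. The embryos' sex is not given. High Xist together with signal of a Y-linked gene on each UGE array is what pooled female and male embryos would give, whereas the adult mice were male. Sex therefore differed along with age and cannot be told apart from it in this comparison. Of the family of the sorted antigen, Ly6e fell (645, 513 and 1013 in UGE and 2924, 2191, 7402 and 2736 in Sca-1Neg, log2 difference -2.28 ± 0.38, adjusted p = 0.000618) and Ly6d was not called (log2 difference 0.87 ± 0.45, adjusted p = 0.167). The gene of Sca-1 itself, Ly6a, was not analysed here. For Eif2s3y, the call was lost without UGE replicate 1 or 2 or Sca-1Neg replicate 3 (adjusted p up to 0.0759).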

How the data were processed

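RNA of 14 mouse samples (3 UGE, 4 Sca-1Neg, 4 Sca-1Lo and 3 Sca-1Hi) was amplified in 2 labelling cycles and hybridized to Affymetrix arrays. The authors summarized probe intensities with PLIER, and the deposited values are probe set intensities on a linear scale. How arrays were normalized against each other is not given in the sources used here, and MAS5 detection calls were not used here. Groups were taken from the sample titles.

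Signals were transformed to log2 after control probe sets were removed. Of 45037 probe sets, 41031 exceeded 20 on at least 1 array. limma (version 3.58.1, R 4.3.3) was fitted to 4 group means with eBayes moderation and Benjamini-Hochberg adjustment, and genes passed below an adjusted p of 0.05 with the brighter group over 75% above the dimmer. The brightest probe set on the log2 scale stood for each gene. Probe sets with 1 listed gene numbered 34945, with several 932 and with none 9160, and only the first kind was named. A lower bound on a fold change compares the brighter group with the floor of 20. The number of arrays limits the precision. Lists, members and tests were chosen with earlier results of these data known, and lists were described by counts and medians with no test. Genes were drawn by a rule: the 15 largest rises and falls without overlap, up to 5 called members in each direction of a list, and any member of lists of cell types, signals, immune genes, transcription factors, Hox genes, steroid receptors and the cell cycle. Not every gene that the rule covers was named, and some lists have members with larger changes than those named. Promoters came from RefSeq on GRCm38.p6. Scripts were tested on simulated data. Replicate numbers did not pair the UGE with the Sca-1Neg samples (correlations of deviations 0.36, -0.45 and 0.06). Pairing among the adult populations was not checked, and the fit treats their arrays as independent. Alternatives were other filters, an added constant, quantile and 75th percentile scaling, other fits, other ways to represent a gene, parts of the Sca-1Neg arrays, and leaving out each array. Tables and figures were made with Python 3.11.15, pandas 2.3.3, numpy 2.4.6 and matplotlib 3.10.9.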

Additional observations from a re-analysis of the deposited data

Results flagged for a closer look

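Among the 4 Sca-1Neg arrays, a single array lay far from the other 3 for 20 of 296 values examined (233 named genes and 63 list medians), by the gap to its neighbour as a share of the range. Chance alone gives such a gap in about 1 of 20 groups. Sca-1Neg replicate 3 stood high for Abcc4 (0.968), Hk2 (0.948), Pigr (0.947), Erbb3 (0.941), Mt2 (0.938), Egf (0.903), Mt1 (0.896) and Edem1 (0.878). The same array stood low for Igtp (0.868), Unc5c (0.863), Hnf4a (0.842) and Btc (0.836). Replicate 4 stood high for Gli1 (0.948), Igfbp2 (0.895), Cdkn2b (0.89), Hmgcs1 (0.869) and Ptch1 (0.831), and for the median of the insulin-like growth factor pathway (0.852). Replicate 2 stood high for Clspn (0.874) and Ccna2 (0.864).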

How the results depend on the processing

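Counts of called genes depended on the arrays and the test more than on the scaling. Leaving out single arrays gave 1883 to 3239 genes higher and 1508 to 2432 lower (probe sets 3915 to 7033 and 2926 to 4923), lowest without UGE replicate 2 for rises and without UGE replicate 3 for falls. Against Sca-1Hi the ranges were 1900 to 2915 and 1386 to 2274, and against Sca-1Lo 1513 to 2452 and 1349 to 2349. Array weights gave 4437 higher and 3780 lower (probe sets 10423 and 8439), with 3936 lower than Sca-1Hi and 3647 lower than Sca-1Lo. A test against the fold minimum itself gave 810 and 881 (probe sets 1628 and 1586), 753 and 744 against Sca-1Hi, and 634 and 812 against Sca-1Lo. The methods' t-test after Benjamini-Hochberg adjustment, with the same fold minimum, gave 1452 and 873 (probe sets 2953 and 1765). Against Sca-1Neg replicates 1 and 2 alone 4392 genes were higher (probe sets 9193), and against replicates 3 and 4 alone 1655 (3585). Higher genes were 55.9% of calls, 45.9% after centring on the 75th percentile, where the median of all genes was -0.13, 49.1% after quantile normalization, 63.5% with replicates 1 and 2 alone and 44.9% with replicates 3 and 4 alone. The cause of these differences was not tested.

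The replicate block gave 3395 genes higher and 2307 lower. The numbers do not pair the UGE with the Sca-1Neg samples, and the block turned Gli1 to 0.1. Of 214 named genes that were called, 182 kept the call whichever array was left out and 32 lost it without at least 1. The call was lost for 72 under the methods' t-test, for 60 in the test against the fold minimum, for 33 with Sca-1Neg replicates 3 and 4 alone and for 27 without UGE replicate 2. With each gene as the mean of its probe sets it was lost for 16. Of these, Acvr2b, Btc, Cbx7, Erbb3, Psen2, Rxra, Tgfa and Txnrd1 had kept it whichever array was left out. Among the genes that kept the call whichever array was left out, Cdkn2c, Dsg2, Krt19, Mgst1, Rarb, Sfrp1, Sqle, Tgfa, Tubb3 and Upk1b lost it with Sca-1Neg replicates 3 and 4 alone. Genes that changed direction were uncalled, apart from Gli3. Gli1 was also 0.08 with array weights and 0.09 with Sca-1Neg replicates 1 and 2 alone, and -0.33 to 0.08 over single arrays left out. Ccnd1 was 0.07 with array weights and -0.46 to 0.18 over single arrays left out. Hoxb13 was 0.43 with replicates 1 and 2 alone and -1.17 to 0.07 over single arrays left out. As the mean of its probe sets, Egfr was -0.29 and Gli3 1.03, and by the probe set of largest change -1.48 and 3.06.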
